A study of Homo sapiens with 2 samples.

Results

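The genes described here encode the cytosolic and mitochondrial heat shock proteins and the co-chaperones that work with them. The list of 49 members follows gene names and families, was drawn up with earlier results of these data known, and covers the HSP70 and HSP110 proteins, HSP90, the HSP40 or J-domain proteins, the small heat shock proteins, the chaperonins, the co-chaperones and the heat shock transcription factors. The platform annotation gives at least 1 probe for 47 of the 49, out of 20046 genes in all, and together they have 73 probes. HSPB11 was matched under its present symbol IFT25, and AHSA1 and HSF2 have no listed probe and were not analysed here. Expression was measured on Illumina BeadChip arrays in the human cell line SNU216, an established line from a gastric cancer. One group is control cells that carry a non-silencing short hairpin RNA, and the other is cells with TEAD4, a DNA-binding transcription factor of the Hippo pathway, knocked down. Each group has 1 array, and the labels give no clone number, hairpin sequence or time, so there are no replicates, no test was possible and no difference has an error between cultures. In RNA pooled from a culture, fewer expressing cells and less RNA per cell cannot be told apart.

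Heat shock proteins are chaperones that hold, fold or hand on other proteins. HSP70 binds short stretches of unfolded chains in a cycle driven by ATP, J-domain proteins load it with clients and start the ATP step, and HSP110 and BAG proteins release the nucleotide so that the client is let go. HSP90 takes over late folding of kinases and steroid receptors with its own co-chaperones, and the chaperonins enclose a client in a chamber. In stressed cells the transcription factor HSF1 binds heat shock elements, inverted repeats of the bases GAA, upstream of many of these genes. Tumour cells often make much of these proteins even without heat.

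The sequences below are shown because HSF1 is known to act through this element on many, though not all, of these genes. The element also divides the members into carriers and non-carriers without any use of the arrays. RefSeq promoter windows of GRCh38.p14, from 250 bases before to 50 bases after a gene start, were found for 42 of the 49 members. They were searched for 3 alternating units, GAANNTTCNNGAA or, for the other strand, TTCNNGAANNTTC, where N is any base and overlapping matches were joined. A match was found for 8 of the 42 members (19.0%), against 0.608% of all 27305 genes with a window. Each match is printed 5′ to 3′ on the strand of the gene with up to 8 flanking bases, and capitals mark the matched bases.
HSPA6, chr1:161524458-161524486, + strand: cggaaaggTTCGCGAAAGTTCgcggcggc
HSPA8, chr11:123062346-123062374, - strand: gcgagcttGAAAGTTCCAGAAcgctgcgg
HSPA8, chr11:123062171-123062199, - strand: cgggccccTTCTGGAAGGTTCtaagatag
HSP90AA1, chr14:102087112-102087140, - strand: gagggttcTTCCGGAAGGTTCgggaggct
HSP90AB1, chr6:44247770-44247798, + strand: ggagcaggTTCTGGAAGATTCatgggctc
HSP90AB1, chr6:44247823-44247851, + strand: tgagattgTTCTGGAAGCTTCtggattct
DNAJA1, chr9:33025268-33025296, + strand: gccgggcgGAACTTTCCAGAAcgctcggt
DNAJB6, chr7:157336865-157336893, + strand: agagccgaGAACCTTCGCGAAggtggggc
HSPD1, chr2:197500060-197500090, - strand: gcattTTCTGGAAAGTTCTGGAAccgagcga
CHORDC1, chr11:90223079-90223117, - strand: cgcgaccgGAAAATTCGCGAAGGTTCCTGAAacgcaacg
The longest run, 23 bases, lies before CHORDC1, and HSPA8 and HSP90AB1 each hold 2 separate matches. HSP90AA1, HSP90AB1 and HSPD1 have several annotated starts, and the matches printed for them belong to 1 start each. A match is a stretch of letters and not a measured binding site.

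For the constitutive HSP70 gene HSPA8 and for CHORDC1 and HSP90AA1, the whole 250 bases before the start are given so that the place of the element is visible, again with the matches in capitals.
HSPA8, chr11:123062137-123062386, - strand: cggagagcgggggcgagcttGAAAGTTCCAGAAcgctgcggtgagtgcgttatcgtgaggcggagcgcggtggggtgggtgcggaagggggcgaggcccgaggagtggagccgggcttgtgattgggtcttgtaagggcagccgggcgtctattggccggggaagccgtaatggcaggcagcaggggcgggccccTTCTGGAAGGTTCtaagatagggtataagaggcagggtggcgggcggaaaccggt
CHORDC1, chr11:90223050-90223299, - strand: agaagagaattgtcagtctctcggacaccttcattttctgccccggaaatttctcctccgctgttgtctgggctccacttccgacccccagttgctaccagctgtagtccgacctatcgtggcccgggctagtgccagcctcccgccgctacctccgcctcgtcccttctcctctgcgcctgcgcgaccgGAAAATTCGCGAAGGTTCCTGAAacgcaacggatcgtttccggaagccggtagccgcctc
HSP90AA1, chr14:102087045-102087294, - strand: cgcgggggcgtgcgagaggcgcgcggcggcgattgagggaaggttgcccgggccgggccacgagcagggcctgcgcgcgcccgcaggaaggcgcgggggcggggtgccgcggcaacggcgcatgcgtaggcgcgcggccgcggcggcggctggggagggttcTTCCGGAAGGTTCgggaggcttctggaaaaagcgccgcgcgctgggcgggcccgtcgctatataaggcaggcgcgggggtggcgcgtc
The inducible neighbours HSPA1A and HSPA1B hold no match of 3 units before the start, but each holds 1 match of the 2 units GAANNTTC, in capitals below. The reverse arrangement TTCNNGAA was searched too, and 21 of the 42 members hold one or the other, against 16.2% of all genes. This shorter search also finds every match of 3 units.
HSPA1A, chr6:31815293-31815542, + strand: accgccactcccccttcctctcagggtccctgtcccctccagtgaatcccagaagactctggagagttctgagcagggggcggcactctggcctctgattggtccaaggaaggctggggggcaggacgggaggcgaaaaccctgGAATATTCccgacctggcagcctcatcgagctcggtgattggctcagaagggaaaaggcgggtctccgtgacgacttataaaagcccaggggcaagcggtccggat
HSPA1B, chr6:31827488-31827737, + strand: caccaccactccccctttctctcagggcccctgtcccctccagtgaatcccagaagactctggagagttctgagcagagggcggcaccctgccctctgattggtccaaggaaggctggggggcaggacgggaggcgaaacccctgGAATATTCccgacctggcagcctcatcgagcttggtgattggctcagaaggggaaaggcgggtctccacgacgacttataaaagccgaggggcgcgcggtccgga
These upstream stretches align at 235 identical positions with 14 differing positions and 2 gap positions (93.6% identical). Their transcripts are near-identical copies too, so signal on a probe named for HSPA1A or HSPA1B cannot be assigned with certainty to 1 of them.

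The knockdown label was checked first. TEAD4 had, by its brightest probe, a deposited signal of 1135 in the control and 167 in the knockdown, 5.89-fold lower after normalization (-2.56 on the log2 scale). Its other probes were detected in the control only or not at all, and the mean gave -1.81 over the detected probes and -1.22 over all 3. Signals below are the deposited linear values, from which a background level had been subtracted, and differences are knockdown minus control of normalized log2 signals, so a positive value is higher in the knockdown. Normalization aligns the overall distributions of the arrays, which is why a log2 difference can be near 0 where the deposited signals are slightly apart. Detection means a deposited detection p-value under 0.01, and 40.0% and 39.4% of the 47323 probes were detected on the control and knockdown arrays. Each gene is represented by its brightest probe. Of the epithelial markers, EPCAM, CDH1, KRT8, KRT19 and CLDN4 were detected on both arrays and KRT18 on neither. CDH1 was 1.58-fold higher in the knockdown (0.66) and CLDN4 differed by 0.57, while EPCAM (-0.20), KRT8 (-0.14) and KRT19 (-0.04) were slightly lower. The leukocyte markers PTPRC and CD3E and all 4 endothelial markers were not detected on either array. LYZ was detected on both arrays and MS4A1 on the knockdown array alone, and of the 6 fibroblast markers, COL1A1 and COL1A2 were detected on both and DCN and LUM on the control array alone. In the knockdown LUM was lower by at least 2.41-fold and DCN by at least 1.21-fold, while COL1A1 differed by -0.29 and COL1A2 by 0.06. The signals of the fibroblast markers, with values below 0 set to 0, summed to 285 and 134, with LUM at 111 and 8. Their part in the values below was not tested.

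The chaperone genes as a whole were close to equal on the arrays. Of the 47 members with a probe, 41 were detected on both arrays, 1 on the knockdown array alone (DNAJB4) and 5 on neither (HSPA6, HSPB2, HSPB8, CRYAB and HSF1). A member was called when it was at least 1.5-fold apart, 0.58 on the log2 scale, and detected on the brighter array. Of the 41 members detected on both arrays, BAG2 and STUB1 were higher in the knockdown by this rule, 2 of 41 (4.88%) against 6.00% of all genes so detected. HSPA2 alone was lower (2.44%), against 7.21%. Counting genes detected on the brighter array alone as well, which adds DNAJB4 by its fitted difference although its bound is under 1.5-fold, 3 of 42 members were higher and 1 lower, against 7.24% and 9.20% of the 11720 detected genes. No member was 2-fold apart by its brightest probe, against 4.15% of the detected genes in either direction. The shares called are thus small among the members and among all genes. Over the 41 members detected on both arrays the median log2 difference was 0.08, with quartiles of -0.03 and 0.26, and over the 10717 genes detected on both arrays it was -0.03, with quartiles of -0.25 and 0.19. Differences under 1.25-fold were found in 30 of the 41 members (73.2%) and in 65.0% of all such genes.

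**Figure D1:**
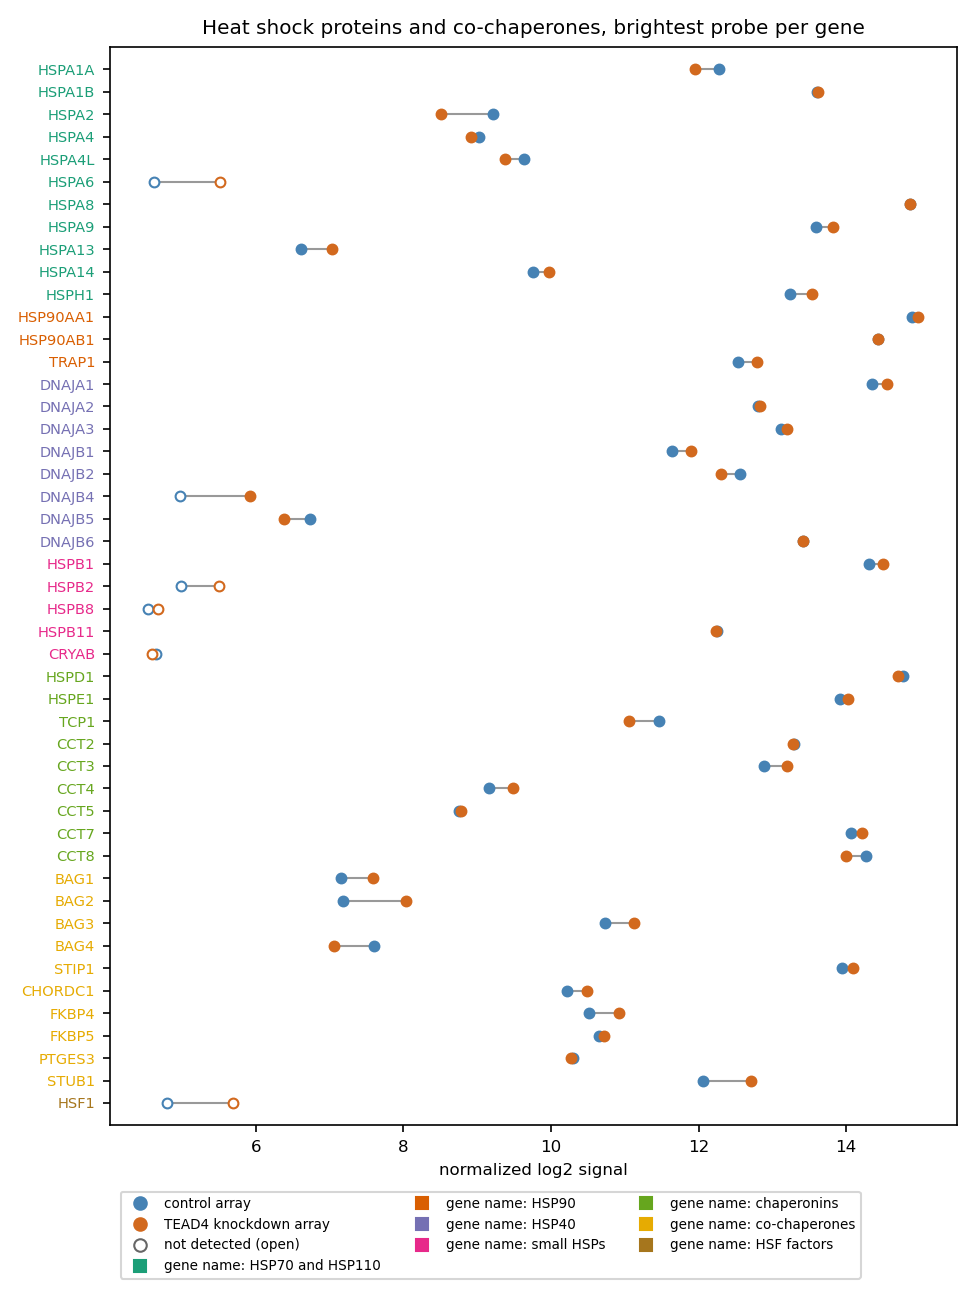
Normalized log2 signal (x axis) of the brightest probe of each of the 47 members with a probe on the control and knockdown arrays, with open circles where the probe was not detected and gene names coloured by family. Most pairs of circles nearly coincide, and the widest gaps among members detected on both arrays are those of BAG2 (0.86), HSPA2 (-0.71) and STUB1 (0.65). Signals of different probes are not comparable as levels.

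**Figure D2:**
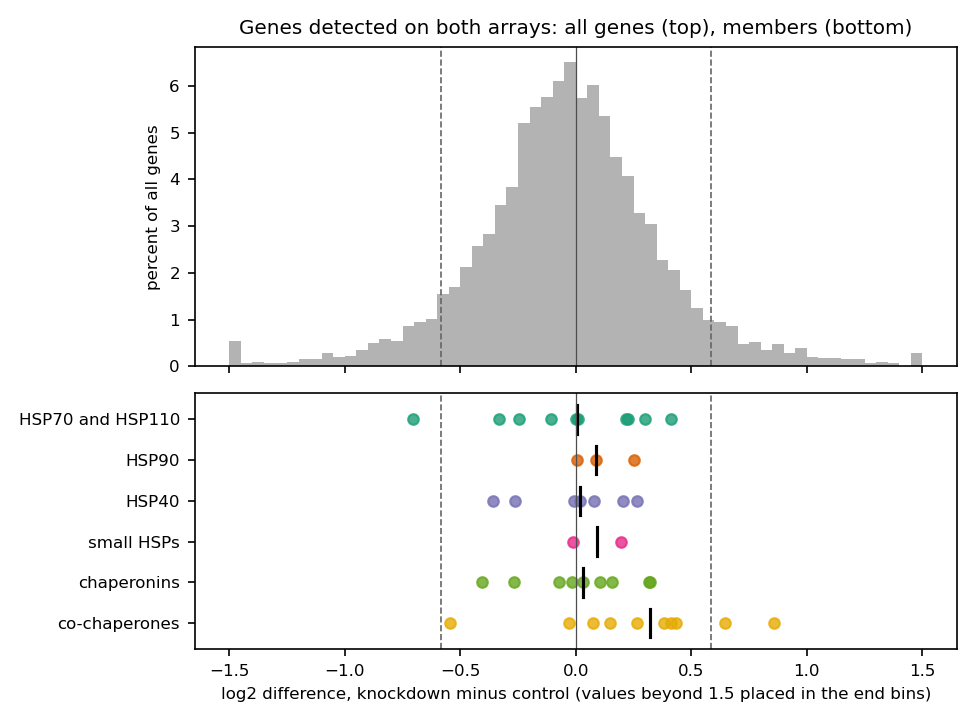
Log2 difference, knockdown minus control, of all 10717 genes detected on both arrays (top, percent of genes per bin) and of the 41 members so detected (bottom, 1 point per gene, black bars are family medians). Dashed lines mark 1.5-fold, and the co-chaperones have their median at 0.32 while the other families have theirs between 0.01 and 0.09.

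The heat shock factors gave almost no measurement. HSF1, the factor that drives the response to heat, had a signal of 2.48 in the control and 34.7 in the knockdown, with detection p-values of 0.38 and 0.011. It therefore missed the detection threshold on both arrays, narrowly so in the knockdown, and its log2 difference of 0.90 rests on signals near background. HSF4, a factor best known from the lens and 1 of the further genes described later, was detected on both arrays with signals of 70 and 144 and a log2 difference of 0.95. Its other probe, with signals of 58 and 77, gave 0.37, so the probes differ in size and not in direction.

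Among the HSP70 and HSP110 genes, HSPA2 was the exception in a family that otherwise stayed within 1.5-fold. HSPA2, an HSP70 best known for its role in sperm development, had a signal of 601 in the control and 336 in the knockdown by its brightest probe, and 256 and 85.8 by its other probe. Both probes were lower in the knockdown, by log2 differences of -0.71 (1.63-fold lower) and -1.35 (2.55-fold lower). HSPA8, the constitutive HSP70 of the cytosol, had signals of 30722 and 28825 by its brightest probe and 29042 and 28886 by the other. After normalization these differed by 0.00 and 0.08.

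The probes of the stress-inducible pair gave different values. HSPA1A had signals of 5089 and 3771 and a difference of -0.33, while HSPA1B had 12740 and 12277 and a difference of 0.01. With the uncertainty about these near-identical genes stated above, neither value reached 1.5-fold. HSPA6, an HSP70 made almost only under stress, was not detected by either probe, with signals of -7.11 and 28.4 by the brighter of them and a detection p-value of 0.035 in the knockdown.

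The HSP110 proteins, which release nucleotide from HSP70, went both ways. HSPH1 was higher, with signals of 9959 and 11595 (0.30), whereas its relatives HSPA4L, at 804 and 628 (-0.25), and HSPA4, at 526 and 449 (-0.11), were slightly lower. A second HSPA4 probe gave 0.15. The mitochondrial HSP70 gene HSPA9 differed by 0.22, with signals of 12632 and 13897, and the ribosome-linked HSPA14 by 0.22, with 877 and 951. HSPA13, an HSP70 of microsomes, had signals of 83.8 and 113 by its only detected probe and a difference of 0.41. Over the 10 detected genes of this family the median was 0.01, with 5 values above 0 and 4 below.

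J-domain proteins, which feed clients to HSP70, were within 1.5-fold with 1 exception near background. DNAJB4 had signals of 10.2 in the control and 44.0 in the knockdown by its brightest probe, and 8.10 and 38.4 by its other probe. Both probes were detected in the knockdown alone, so only lower bounds of the fold can be given, 1.20 for the first and 1.09 for the second. The fitted difference was 0.96 by the brightest probe and 0.43 in the deposited normalized table. This gene passed the filter only through the knockdown array, so it had to be higher there to be counted. DNAJB1, the main stress-inducible J protein and a standard readout of HSF1, had signals of 3290 and 3649 (0.27). DNAJA1, its farnesylated relative, had 21140 and 23681 (0.20).

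DNAJA2 (0.02) and the mitochondrial DNAJA3 (0.08) were nearly equal on the arrays. DNAJB6, known for holding back aggregates of polyglutamine proteins, differed by -0.01 by its brightest probe, which had signals of 11260 and 10584, and by 0.30 by another, which had 3519 and 4008. The annotation lists a different RefSeq transcript for each of these probes, and neither difference reached 1.5-fold. DNAJB2, a J protein that steers clients to the proteasome, was lower at signals of 6256 and 4890 (-0.26). DNAJB5 was lower too, with signals of 92.8 and 66.1 (-0.36). Another of its probes, detected in the knockdown alone, allows only a lower bound of 1.07-fold higher. The family median over the 7 genes detected on both arrays was 0.02.

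HSP90 itself was level. HSP90AA1, the inducible cytosolic form, had signals of 31468 and 31550 by its brightest probe (0.09), 28697 and 27913 by the next (0.03) and 190 and 160 by the dimmest (-0.15). HSP90AB1, the constitutive form, had 22344 and 21793, a difference of 0.00. TRAP1, the mitochondrial HSP90, had 6120 and 6807 and was 0.25 higher. The cytosolic pair thus differed less than TRAP1, and all 3 were under 1.25-fold by their brightest probes.

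Co-chaperones had the family median furthest from 0, at 0.32, and held both members that were called higher on detection by both arrays. Of 10 detected members 8 had a positive difference, against 46.0% of all genes detected on both arrays, and 2 passed 1.5-fold, against the 6.00% given above. STUB1, the ubiquitin ligase CHIP that marks clients of HSP70 and HSP90 for the proteasome, had signals of 4420 in the control and 6450 in the knockdown by its brightest probe, and 2181 and 3140 by its other probe. The probes gave differences of 0.65 (1.57-fold higher) and 0.64 (1.56-fold higher), so both were past the threshold and nearly equal. With arrays scaled to a common median in place of quantile normalization the value was 0.57, just under 1.5-fold.

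BAG2, a nucleotide exchange factor of HSP70 that is known to hold CHIP's ligase activity back, had signals of 132 and 238 by its only probe. It was 1.81-fold higher (0.86), and 0.63 in the deposited normalized table, which is still past 1.5-fold. The other BAG proteins differed in direction. BAG3, which links HSP70 to small heat shock proteins and to autophagy, had signals of 1749 and 2116 (0.38), and BAG1, which links HSP70 to the proteasome, had 129 and 172 (0.44). BAG4, also called the silencer of death domains, had 183 and 115 (-0.55), but its other probe had 126 and 118 (-0.04).

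Apart from STUB1, described above, the HSP90 co-chaperones measured among the members were under 1.5-fold. FKBP4, an immunophilin of steroid receptor complexes, had signals of 1492 and 1851 (0.41), whereas its relative FKBP5, a target of the glucocorticoid receptor, had 1638 and 1611 (0.07). CHORDC1, an HSP90 partner, had 1224 and 1365 (0.26). STIP1, which carries clients from HSP70 to HSP90, had 16216 and 17020 (0.15). PTGES3, the p23 protein that closes the HSP90 cycle, had 1289 and 1163 (-0.03).

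Most small heat shock proteins gave no signal in these cells. HSPB1, known as HSP27, had signals of 20546 and 22901 and a difference of 0.20. CRYAB, HSPB2 and HSPB8, small heat shock proteins best known from muscle and lens, were detected on neither array, with signals between -12.8 and 28.1. HSPB11, which despite its name is the intraflagellar transport protein IFT25, had 4994 and 4674 (-0.01).

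Chaperonins fold clients in a closed chamber, HSPD1 with its lid HSPE1 in mitochondria and the CCT ring in the cytosol, where actin and tubulin are its main clients. By their brightest probes none of the 9 genes passed 1.5-fold, and the median was 0.03. HSPD1 had signals of 28724 and 26149 by its brightest probe (-0.07), but 6115 and 7980 by another detected on both arrays (0.47). HSPE1, which is transcribed from the opposite side of a promoter region shared with HSPD1, had 15980 and 16130 (0.11) and, by a dimmer probe, 3301 and 2692 (-0.18). The RefSeq window of HSPE1 and an upstream window of HSPD1, which has several annotated starts, share 204 bases. No 3-unit match was found for HSPE1, so the whole match printed for HSPD1 does not lie in these shared bases.

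Ring subunits CCT3 (0.32) and CCT4 (0.32) were the highest by their brightest probes and TCP1 (-0.41) and CCT8 (-0.27) the lowest, with CCT2 (-0.02), CCT5 (0.03) and CCT7 (0.16) between them. The subunit CCT6A, not among the members, differed by -0.11. TCP1, the alpha subunit, was the least settled member. Its brightest probe had signals of 2914 in the control and 2026 in the knockdown (-0.41), the next had 619 and 708 (0.29), and the dimmest had 165 and 587 (1.83, or 3.55-fold higher). These 3 probes were all detected on both arrays and carry the same RefSeq accession in the annotation, so the direction for TCP1 depends on the probe. In CCT7 the dimmest of 3 probes stood apart in the same way, with signals of 88.6 and 181 (0.97), against 0.16 and 0.25 for the brighter probes.

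**Figure D3:**
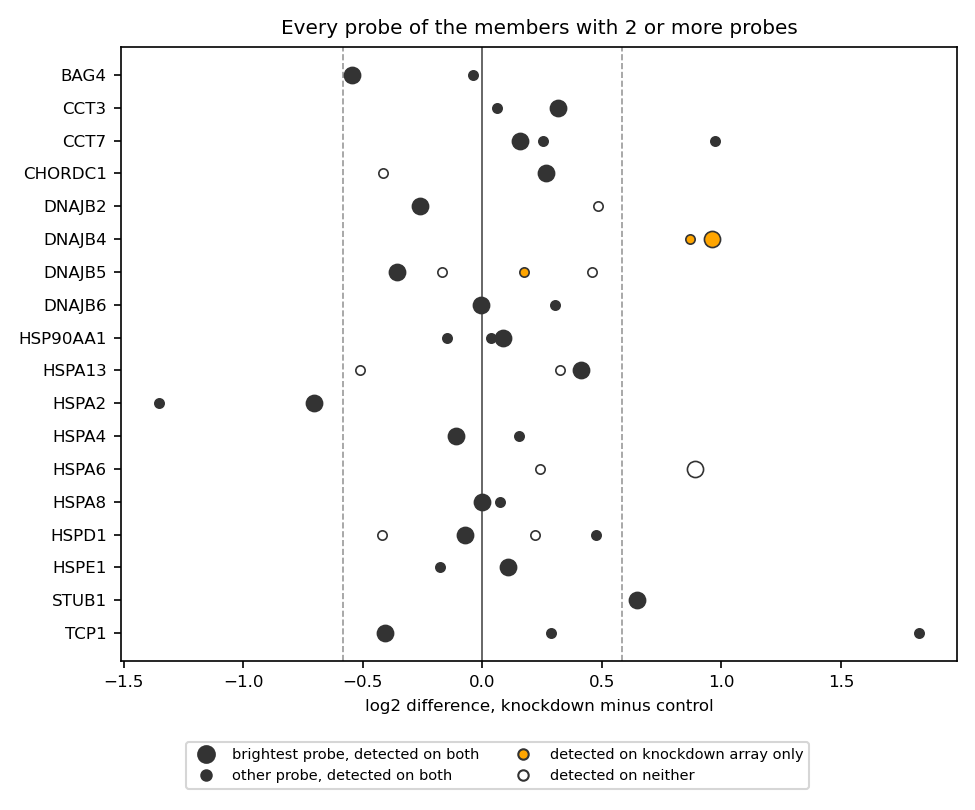
Log2 difference, knockdown minus control, of every probe of the 18 members with 2 or more probes, where large circles are the brightest probe of a gene and fill marks detection. Dashed lines mark 1.5-fold, both STUB1 probes coincide near 0.65, both HSPA2 probes lie to the left of the line, and the TCP1 probes range from -0.41 to 1.83.

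Probes of one gene that were detected on both arrays gave the only measure of error, which is not purely technical. Some are listed for different transcripts, as for DNAJB6, so differences between transcripts can enter it. Among 2497 genes with 2 or more such probes over the whole platform, the 2 brightest probes of a gene had differences with a per-probe standard deviation (SD) of 0.32. Among the 12 members with such probes, the 2 brightest had the same sign in 6, and across all 2497 genes they did in 64.2%. Of the 41 members detected on both arrays, 29 differed by no more than this SD. The SD is close to the 1.25-fold used above, under which 73.2% of these members and 65.0% of all genes so detected fell. The 29 thus largely repeat that earlier count. STUB1 and HSPA2 passed 1.5-fold in the same direction with both detected probes, while BAG2 has only 1 probe. This spread holds no variation between cultures or arrays.

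None of the members with a printed 3-unit match was called. Of the 8 carriers of the 3-unit element, 7 were detected on both arrays. By their brightest probes the median difference was 0.00, with a range from -0.07 (HSPD1) to 0.26 (CHORDC1), and 4 were above 0. Other probes detected on both arrays gave 0.47 for HSPD1, 0.30 for DNAJB6, 0.08 for HSPA8, and 0.03 and -0.15 for HSP90AA1. None of the 7 was 1.5-fold apart by any of these probes. The 30 members with a window but no such match that were detected on both arrays had a median of 0.08 and ranged from -0.71 (HSPA2) to 0.86 (BAG2). The carriers lie inside the range of the others. With 7 values beside 30 this is likely in any case, so no conclusion is drawn from it. The members without a match also include genes that HSF1 is known to raise, such as HSPA1A, HSPH1 and DNAJB1. A match therefore does not divide the members by control through HSF1. In a broader list of 25 genes that HSF1 is known to raise on heating, most of them members, 21 were detected on both arrays. Of these, CACYBP and SERPINH1 were at least 1.5-fold higher (9.52%) and 0 lower, with a median of 0.17, against 6.00%, 7.21% and -0.03 for all genes so detected. The 5 members that work in mitochondria, HSPA9, TRAP1, HSPD1, HSPE1 and DNAJA3, had a median of 0.11 and 0 past 1.5-fold, beside those same shares.

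Further chaperone genes outside the members were listed by family in the same way. Of 88 genes, 83 had a probe and 64 were detected, all of them on both arrays. At least 1.5-fold higher were 8 of the 64 (12.5%) and lower 1 (1.56%), with a median of 0.09, against 6.00% and 7.21% of all genes detected on both arrays. In the deposited normalized table the total past 1.5-fold was 3 in place of 9, namely CACYBP (0.87), SERPINH1 (0.79) and DNAJC5 (0.65). There HSF4, DNAJC4 and SGTA fell just under the threshold, and PFDN4 (-0.49), DNAJC11 (0.46) and PDCL (0.38) further below it in size.

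CACYBP, a binding partner of the ubiquitin ligase SIAH1, had signals of 694 in the control and 1233 in the knockdown (1.89-fold higher, 0.92). Its other probes were detected on neither array. SERPINH1, the collagen chaperone HSP47, which is induced by heat although it works in the endoplasmic reticulum, had 2283 and 3777 (0.84). It is also the only 1 of the 75 further genes with a promoter window that holds the 3-unit element. SGTA, a co-chaperone that sorts tail-anchored membrane proteins, had 585 and 835 (0.61), beyond 1.5-fold by a narrow margin.

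Of the J proteins on the further list, DNAJC5, the cysteine string protein of secretory vesicles, had 837 and 1261 (0.69). DNAJC4 had 615 and 885 (0.62), though its other detected probe, at 207 and 209, gave 0.09. DNAJC11, a mitochondrial J protein, had 37 and 81 (0.93), close to background on the control array. PDCL, a phosducin-like cofactor of the CCT ring, had 72 and 118 (0.65). PFDN4, a subunit of prefoldin, which delivers actin and tubulin to the ring, was the lower one, with 124 and 59 (1.81-fold lower, -0.85). The other prefoldin subunits PFDN1 (0.15), PFDN2 (0.08), VBP1 (-0.05), PFDN5 (-0.06) and PFDN6 (0.21) were under 1.25-fold.

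**Figure D4:**
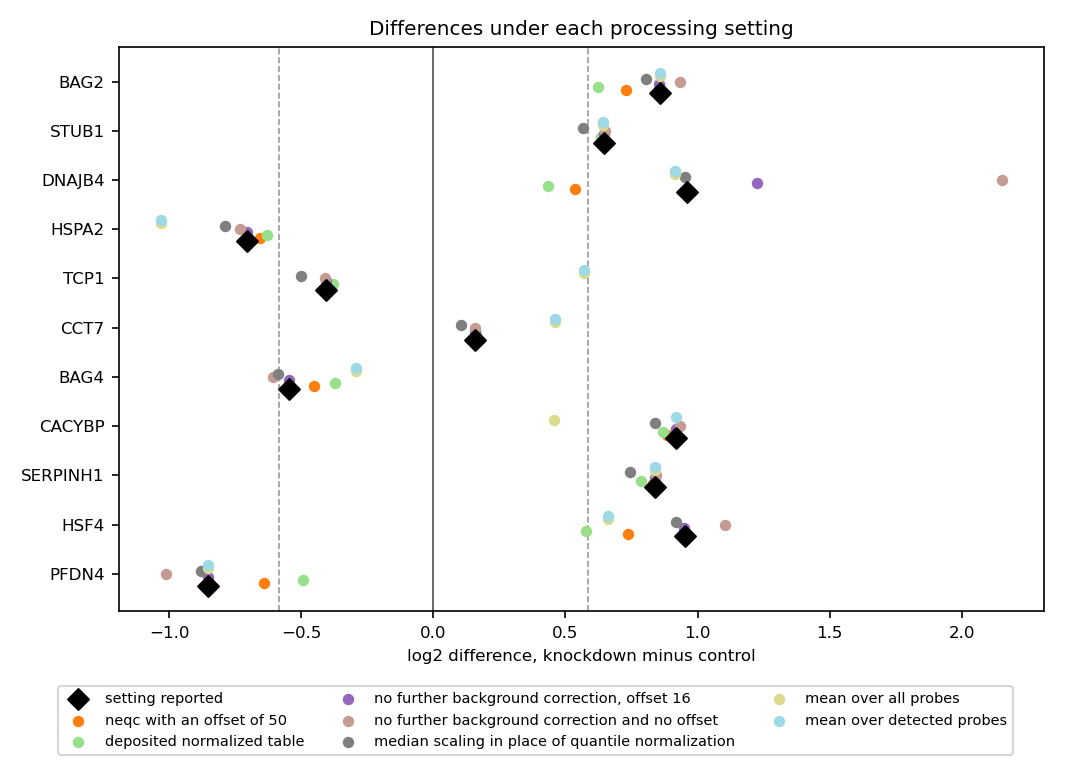
Log2 difference, knockdown minus control, of 7 members and 4 further chaperone genes under the reported setting (black diamonds) and the processing alternatives that can move it (coloured points), with dashed lines at 1.5-fold. BAG2 stays between 0.63 and 0.93 and HSPA2 between -1.03 and -0.63, while DNAJB4 ranges from 0.43 to 2.15 and TCP1 from -0.50 to 0.57.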

How the data were processed

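Total RNA was labelled as biotinylated cRNA and hybridized to Illumina BeadChips, 1 array of control and 1 of TEAD4 knockdown cells, per the labels. The deposited probe intensity values are linear and not normalized, and the authors had subtracted a background, since 12861 and 12895 of 47323 probes lie below 0. Per the file headers, the authors deposited a detection p-value for every probe and array. Their other intensity table is quantile normalized, judged from its values, with median log2 signals of 6.89 and 6.89. It is linear and not centred, and signals of 1 colour have no direction. Neither the software nor how the background was subtracted is given in the sources used here.

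Signals were normalized with neqc of limma 3.58.1 in R 4.3.3 on the whole table, with background inferred from the detection p-values, an offset of 16, quantile normalization and log2. This offset makes the fold changes of dim probes smaller. A constant added to all signals does not change the result. The platform annotation gives 1 symbol for 30113 probes, several for 8 and does not list 17202. A bound, where a probe was detected on 1 array, is its signal over the higher of the dim signal and the lowest detected signal of the dim array. No test between groups was run, because each group has 1 array, which is what limits the precision. The steps were tested on simulated data. Named genes are all members, TEAD4, markers and those further chaperone genes at least 1.5-fold apart. The prefoldin subunits, CCT6A and the examples of single probes were added after their values were seen. Members and lists were chosen with earlier results of these data known. Alternatives covered the background step, offset, scaling, probe choice and detection filter.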

Additional observations from a re-analysis of the deposited data

How the results depend on the processing

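BAG2 and HSPA2 were past 1.5-fold under all 10 alternatives, and STUB1 under all but median scaling (0.57). Members at least 1.5-fold higher, with DNAJB4 counted by its fitted difference, numbered 3 and ranged from 2 to 5 over the alternatives. They were 5 at a detection p under 0.05 and 5 with no detection filter, both of which add HSPA6 and HSF1, and 2, without DNAJB4, with an offset of 50, in the deposited table and among genes detected on both arrays. Members lower numbered 2, with BAG4, without correction and offset and 2 with median scaling. The median over detected members, 0.08, was 0.019 with median scaling and 0.15 with the mean over detected probes. Over all detected genes the median was -0.04 in the reported setting, -0.10 with median scaling and -0.02 with that mean. Median scaling thus lowered the members and all genes together. The mean over detected probes also took the chaperonin median from 0.03 to 0.19. The HSP70, HSP40 and chaperonin medians, all near 0, changed sign under 1 alternative each. Over all genes, 848 higher and 1078 lower became 550 and 710 with an offset of 50 and 448 and 530 in the deposited table, where the further chaperone genes past 1.5-fold became 3 in place of 9. Of 464 member values under the alternatives, 443 moved by less than the SD per probe. For medians this tolerance was divided by the square root of the number of genes. Many of the 464 could not move. A detection filter leaves a gene's difference as it is, and averaging probes leaves the 29 members with 1 probe as they are. The count of 443 therefore overstates how settled the values are. Of the called members 0 reversed. Uncalled members did change sign, such as TCP1 (-0.50 to 0.57), DNAJB2 (-0.33 to 0.11), DNAJB5 (-0.43 to 0.03) and CHORDC1 (-0.08 to 0.27). No paired analysis was possible because with 1 array a group there are no pairs, so no replicate could be left out either. Differences of probes near background, such as those of HSF1, HSPA6 and DNAJB4, are limited by their signal.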
